A study of Mus musculus with 10 samples.

Results

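The cytosolic ribosomal protein genes were followed in sorted aortic smooth muscle cells of mouse embryos. Members were the genes of the deposited count table whose symbol was Rpl or Rps followed by a number, with at most the letter a, x or l after it, together with Rplp0, Rplp1, Rplp2 and Rpsa. Symbols ending in -ps and a number, which mark pseudogenes, were left out. The rule found 81 of the 28165 genes, 32 of the small subunit (Rps and Rpsa) and 49 of the large subunit (Rpl and Rplp). There were 5 libraries of Eln-/- cells and 5 libraries of Eln+/+ cells, all from the aorta of embryos at embryonic day 15.5 that carried an Acta2-GFP reporter and came from matings of Eln+/- parents. Eln encodes elastin, the core protein of elastic fibres. Per the labels, collagenase was used to free the cells, and the sort kept those positive for GFP and negative for CD31, a surface protein of endothelial cells, and for DAPI, a dye that enters dead cells. The sort therefore rests on the activity of the Acta2 promoter. The labels do not give the Eln allele, the number of embryos behind a library or whether the replicates are separate embryos, so a p-value here reflects how these libraries vary, and that variation may be technical.

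A cytosolic ribosome joins a small subunit, which holds the mRNA and reads its codons, to a large subunit, which joins the amino acids. Each subunit is built from ribosomal RNA and a fixed set of proteins in nearly equal numbers, and the genes of these proteins belong to the most strongly transcribed in most cells. Their transcripts are short, and many begin with a run of pyrimidines at the 5′ end through which the mTOR pathway controls their translation. Growing smooth muscle cells of the developing aorta need ribosomes for the matrix proteins that they secrete.

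The members lay on 19 chromosomes, with 14 on chromosome 7 and 4 on chromosome X. GENCODE annotated 78 of them with a coding sequence, from 75 bases for Rpl41 to 1257 bases for Rpl4 with a median of 453 bases, and 3 as processed pseudogenes (Rpl32l, Rpl6l and Rps4l). RefSeq start site windows of GRCm38.p6, the assembly also called mm10, matched 59 of the 81 members. A run of at least 8 bases C or T within 5 bases of the annotated start was found for 24 of the 59 (40.7%), against 3068 of 27025 genes of the whole table of windows (11.4%). The letters CGGAAG on either strand, from 250 bases before to 50 bases after the start, were found for 41 of the 59 (69.5%), against 5075 of 27025 genes (18.8%). These letters can lie inside the same window as a pyrimidine run, and a match is a description of sequence only. The 4 windows of 30 bases printed here, each beginning 15 bases before the annotated start, belong to members described below and hold such a run, which is in capitals. They are examples, and not every described member with such a run is printed. Rps27l and Rpl32l are among those left out.
Rplp2 (chr7:141447636-141447665, plus strand): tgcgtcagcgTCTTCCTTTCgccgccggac
Rps18 (chr17:33955651-33955680, minus strand): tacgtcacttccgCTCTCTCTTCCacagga
Rps6 (chr4:86857353-86857382, minus strand): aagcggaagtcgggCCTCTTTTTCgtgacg
Rpl38 (chr11:114668565-114668594, plus strand): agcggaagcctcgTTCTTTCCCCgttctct

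The libraries held 26951733 to 63866416 estimated counts. Eln itself was measured at 0.493, 0.0152, 0, 0.0726 and 0 TMM-scaled CPM in Eln-/- replicates 1 to 5, against 159, 1214, 175, 789.9 and 702 TMM-scaled CPM in Eln+/+ replicates 1 to 5, and the genotypes did not overlap. All 8 smooth muscle markers were above the filter on low counts, and their summed share was 0.0599% to 0.525% in Eln-/- libraries and 0.109% to 0.36% in Eln+/+ libraries, lowest in Eln-/- replicate 4 and Eln+/+ replicate 1. The 6 endothelial markers summed to at most 0.0031% in Eln-/- libraries and 0.00538% in Eln+/+ libraries, whereas the 9 blood markers peaked at 0.25% among Eln-/- libraries (replicate 4) and at 1.06% among Eln+/+ libraries (replicate 1). The 6 fibroblast markers summed to 0.0286% to 1.57% in Eln-/- libraries and 0.0735% to 1.05% in Eln+/+ libraries. Eln-/- replicate 4, Eln-/- replicate 5 and Eln+/+ replicate 1 stood apart from the other 7 libraries and are called low-detection here. They had the fewest genes with a count (15566, 15898 and 15067, with 18141 to 22934 in the rest), the fewest counts (26951733 to 31366658, against 39646351 to 63866416) and the largest share on the ribosomal RNA gene model CT010467.1 (5.52% to 5.99%, against 0.225% to 2.96%). The summed fibroblast markers did not overlap between these 3 libraries (0.0286% to 0.0768%) and the rest (0.284% to 1.57%), while the summed smooth muscle markers did (0.0599% to 0.239%, and 0.128% to 0.525% in the rest). Single genes differed from their sums. Of the smooth muscle markers, Myl9, Mylk, Smtn and Actg2 were lower in these 3 libraries without overlap, whereas Acta2, Tagln, Myh11 and Cnn1 overlapped. Of the fibroblast markers only Dpt overlapped (144 to 354 CPM, and 168 to 539 CPM in the rest). The part of the marker shares in the results was not tested.

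Ribosomal protein genes held 1.32, 3.37, 4.59, 11.7 and 7.62% in Eln-/- replicates 1 to 5, against 10.4, 2.19, 3.604, 3.19 and 5.04% in Eln+/+ replicates 1 to 5. The mean was 5.71% ± 4.03 in Eln-/- cells and 4.88% ± 3.23 in Eln+/+ cells (SD, n = 5 each). The genotypes overlapped across nearly their whole range, and the difference of 0.84 percentage points was smaller than either SD. The highest shares were those of Eln-/- replicate 4, Eln+/+ replicate 1 and Eln-/- replicate 5, the low-detection libraries, and the lowest was that of Eln-/- replicate 1, which had the most genes with a count. Without those 3 libraries the mean was 3.09% in Eln-/- cells (n = 3) and 3.51% in Eln+/+ cells (n = 4). Between 745034 and 3306662 counts lay on members in a library, so the Wilson 95% interval of a share was at most 0.0118 percentage points wide on either side. It covers counting error only. In bulk RNA, fewer cells of a type and less RNA per cell cannot be told apart.

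**Figure D1:**
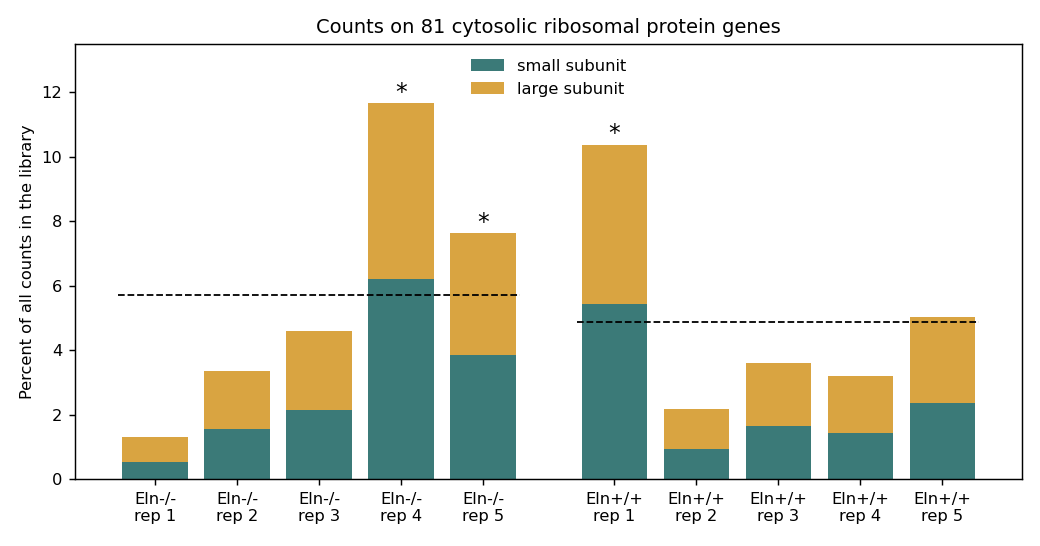
Percent of all counts on small subunit (32 genes, green) and large subunit (49 genes, yellow) ribosomal protein genes in each library, with Eln-/- on the left and Eln+/+ on the right. Dashed lines are genotype means of 5.71% and 4.88%, and stars mark the 3 low-detection libraries, at 11.7% and 7.62% in Eln-/- replicates 4 and 5 and 10.4% in Eln+/+ replicate 1.

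Both subunits followed the same order of libraries. Small subunit genes held 2.86% ± 2.23 of counts in Eln-/- cells and 2.37% ± 1.79 in Eln+/+ cells, and large subunit genes held 2.85% ± 1.81 in Eln-/- cells and 2.51% ± 1.45 in Eln+/+ cells (SD, n = 5 each). The ratio of large to small subunit counts was 1.41, 1.18, 1.14, 0.876 and 0.981 in Eln-/- replicates 1 to 5, against 0.908, 1.297, 1.17, 1.22 and 1.14 in Eln+/+ replicates 1 to 5. It was below 1 in the 3 low-detection libraries and between 1.14 and 1.41 in the other 7, which came from both genotypes.

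The balance among members followed the length of the coding sequence. The 27 members with a coding sequence under 400 bases held 17.9, 18.6, 21.1, 37.6 and 24.1% of member counts in Eln-/- replicates 1 to 5, against 34.9, 17.7, 21.1, 19.98 and 20.6% in Eln+/+ replicates 1 to 5. The 21 members with 600 bases or more held 48.9, 45.02, 41.3, 14.7 and 33.1% of member counts in Eln-/- replicates 1 to 5, against 20.4, 47.8, 42.7, 44.5 and 41.6% in Eln+/+ replicates 1 to 5. Short members took their largest part, and long members their smallest, in Eln-/- replicates 4 and 5 and Eln+/+ replicate 1. All 3 of these libraries ranked above the other 7 for 25 of the 27 short members, for 23 of the 30 members of 400 to under 600 bases, and for 5 of the 21 long members. This count was not made over all genes, so it does not show a trait particular to members. Other genes with short transcripts also held their largest shares in these 3 libraries, as given below. The ratio of the highest to the lowest library had a median of 14.5 among the short members and 4.37 among the long ones. Rpl39l, at 0 in 2 libraries, has no such ratio.

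Within a library, the level of a member relative to its own median over the 10 libraries was set against its coding length. Spearman's rho over the 78 members with a coding length was 0.45, 0.54, 0.12, -0.74 and -0.46 in Eln-/- replicates 1 to 5, against -0.72, 0.59, 0.36, 0.57 and 0.34 in Eln+/+ replicates 1 to 5. It was negative in the 3 low-detection libraries and positive in the other 7. Members of one library share its depth and preparation, so the coefficient describes that library and carries no p. Over 3732 other genes whose average log2 CPM was 5 or more, rho ran from -0.66 to -0.62 in those 3 libraries and from -0.30 to 0.66 in the rest. Over all 11780 other tested genes with a coding length the libraries overlapped, with rho from -0.43 to -0.16 in those 3 and from -0.26 to 0.64 in the rest. A further share left out members and the near-identical copies described below, and was taken of counts on genes with a coding transcript only. Of these counts, genes whose longest coding transcript was under 1000 bases held 42.2% and 21.5% in Eln-/- replicates 4 and 5. The share was 39.6% in Eln+/+ replicate 1 and 4.98% to 13.3% in each of the rest. The part of RNA quality, input or library preparation in this pattern was not tested.

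**Figure D2:**
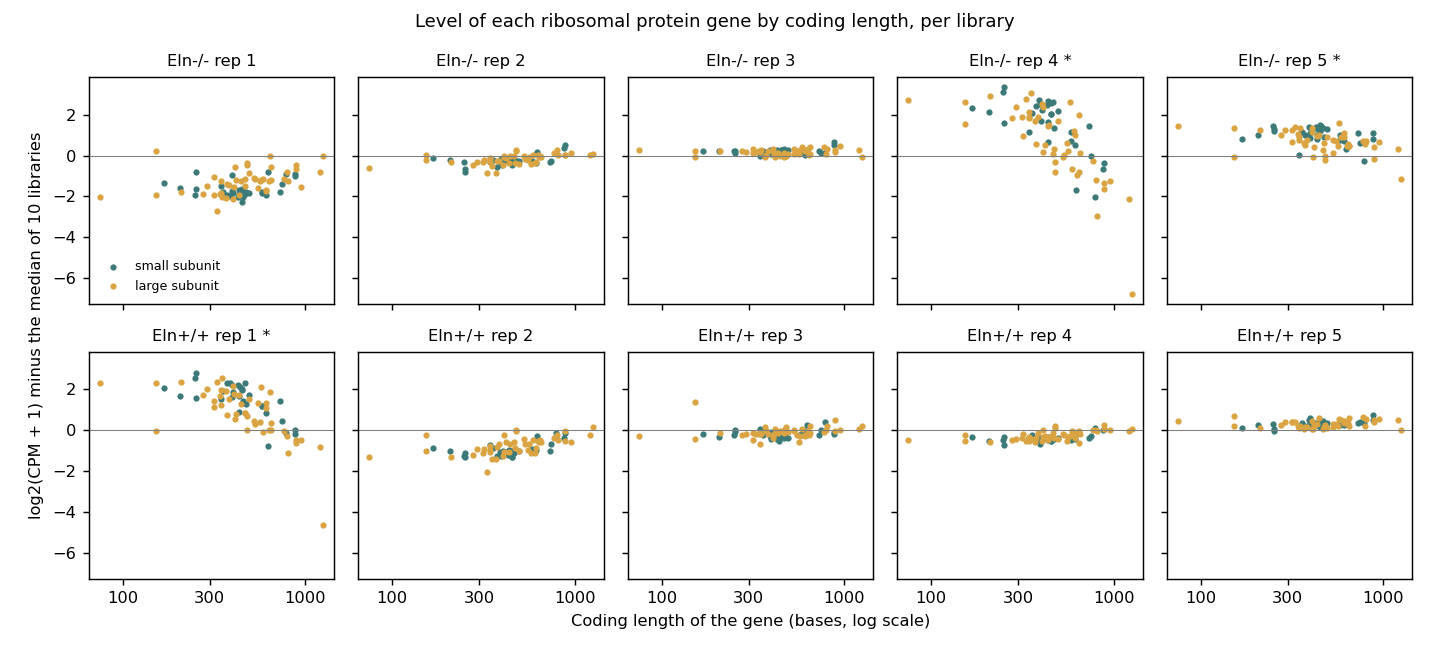
Each point is a member: x, coding length in bases on a log scale; y, log2(CPM + 1) in that library minus the member's median over the 10 libraries. Upper panels are Eln-/- and lower panels Eln+/+, stars mark the 3 low-detection libraries, and in those panels points fall from left to right, with Spearman's rho of -0.74 and -0.46 in Eln-/- replicates 4 and 5 and -0.72 in Eln+/+ replicate 1.

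Levels of different members were compared per kilobase of exon, as CPM per kb averaged over the 10 libraries. Rpl32, a large subunit protein, was first at 4749 CPM per kb, followed by Rpl41 (2600.1), Rplp1 (2281), Rplp0 (2017) and Rps14 (1954). Rps27l (1021) held place 8 by mean, with places 5 and 6 in Eln-/- replicate 4 and Eln+/+ replicate 1, but places 13 to 24 in the other 8 libraries and place 17 by median. By genotype, Rpl32 had 5433 ± 5759 CPM per kb in Eln-/- cells and 4064 ± 4340.5 CPM per kb in Eln+/+ cells, and Rplp0 had 2015 ± 1171 CPM per kb in Eln-/- cells and 2018 ± 659 CPM per kb in Eln+/+ cells (SD, n = 5 each). The first place went to Rpl32 or Rplp0 in every library, and 6 or 7 of the first 8 members by mean were among the first 8 in each library. Each neighbouring pair among the first 5 differed by less than the SD of the higher member in either genotype. The last places were held by Rpl17 (10.5 CPM per kb), Rpl12 (9.33), Rpl5 (6.86), Rps12 (5.89) and Rpl39l (0.763). All places here rest on counts on the member alone, without the near-identical copies described below. With the longest coding transcript as the length, or the median over libraries as the level, 7 of the first 8 members were the same.

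Many members share their sequence with other loci. Ribosomal protein genes have given rise to many processed pseudogenes, copies of a spliced mRNA. A search of the members' coding sequences found 516 other genes of the table with at least 95% identity over at least 90% of the coding sequence and at least 50% of their own transcript, belonging to 72 members. Of these copies 496 were annotated as processed pseudogenes, 12 as transcribed processed pseudogenes and 8 as protein coding, and Rpl21 had the most (53). Of all counts, members and copies together held 2.84, 7.23, 9.74, 24.8 and 16.1% in Eln-/- replicates 1 to 5, against 22.5, 4.73, 7.69, 6.801 and 10.7% in Eln+/+ replicates 1 to 5. The members' own part of that sum was 46% to 47.4% in every library. For 48 members under 50% of the joint counts lay on the member, and for 10 members under 10%. With copies summed into their member, 5 of the first 8 members by CPM per kb were the same. Rpl10 moved from place 76 to place 26, and Rps27 from place 73 to place 2. Of the members in the last places, Rpl17 moved from 77 to 39, Rpl12 from 78 to 73, Rpl5 from 79 to 55 and Rps12 from 80 to 65, while Rpl39l stayed last. Counts of members with near-identical copies are therefore uncertain one by one.

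**Figure D3:**
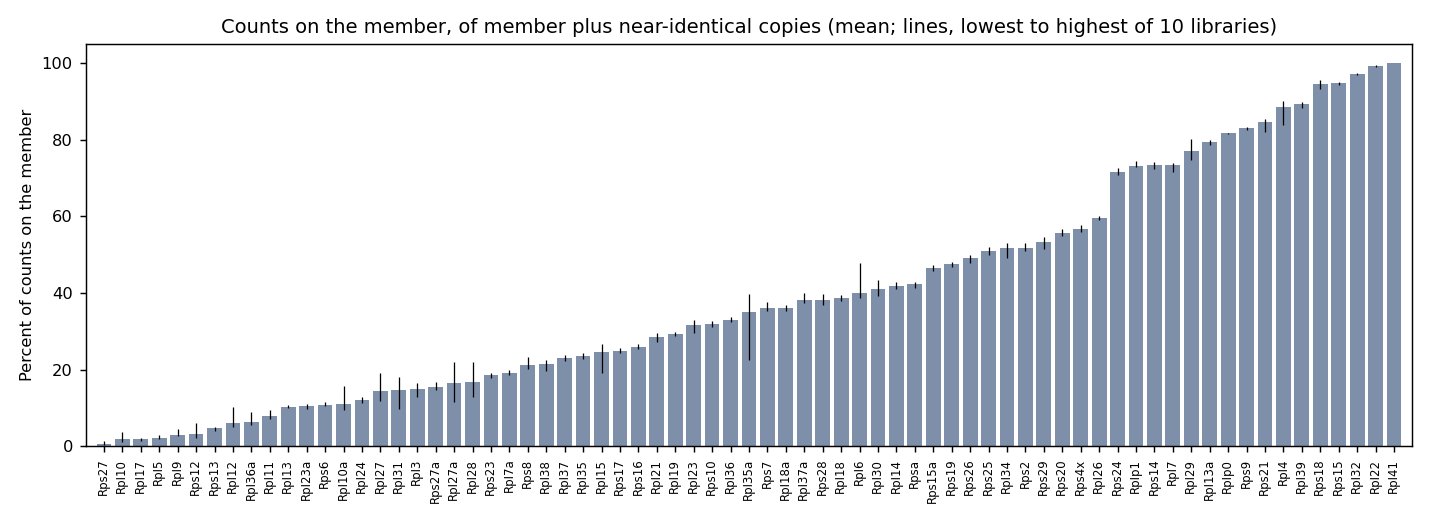
Percent of the counts of a member and its near-identical copies that lay on the member, for 71 members with copies; bars are means of 10 libraries and lines run from the lowest to the highest library. Rps27 is lowest at 0.575% and Rpl41 highest at 100%, and the lines are short beside the differences between members.

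Rps27, a zinc finger protein of the small subunit, had the smallest part of its joint counts on its own gene (0.575%). It was measured at 7.704, 7.64, 17.1, 44.4 and 36.1 CPM in Eln-/- replicates 1 to 5, against 44.8, 6.11, 14.4, 8.31 and 14.04 CPM in Eln+/+ replicates 1 to 5. Rps27rt on chromosome 9, whose 252 coding bases before the stop codon differ from those of Rps27 at 0 positions, was listed at 601, 1917, 2938, 13095 and 6733 CPM in Eln-/- replicates 1 to 5, against 10663, 1059.9, 2036, 1678 and 3065 CPM in Eln+/+ replicates 1 to 5. Of these 2 genes, nearly all counts thus stood on Rps27rt, which the symbol rule leaves out. Rps27l, a paralogue induced by p53, has 60 differing bases, marked in capitals, and an identity of 76.2%, and no near-identical copy was found for it. The spliced coding sequences of Rps27 (minus strand) and Rps27l (plus strand), from GENCODE on GRCm38, are given with the span of each gene because Rps27rt shares every coding base with Rps27 and Rps27l does not.
Rps27 (chr3:90212522-90213651): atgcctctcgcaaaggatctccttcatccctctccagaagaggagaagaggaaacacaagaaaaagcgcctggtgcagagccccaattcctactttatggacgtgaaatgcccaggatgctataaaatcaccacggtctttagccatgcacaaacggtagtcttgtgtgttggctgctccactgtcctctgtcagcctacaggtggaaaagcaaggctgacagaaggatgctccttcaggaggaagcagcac
Rps27l (chr9:66946086-66949516): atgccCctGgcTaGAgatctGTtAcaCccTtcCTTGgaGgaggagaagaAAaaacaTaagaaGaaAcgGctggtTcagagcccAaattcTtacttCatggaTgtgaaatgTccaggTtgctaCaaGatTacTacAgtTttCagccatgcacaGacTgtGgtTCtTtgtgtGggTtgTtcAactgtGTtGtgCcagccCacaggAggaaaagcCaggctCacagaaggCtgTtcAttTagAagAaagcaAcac

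Rps27l had 107, 212, 365, 3432 and 781 CPM in Eln-/- replicates 1 to 5, against 2353, 137, 324, 274 and 353 CPM in Eln+/+ replicates 1 to 5. Eln-/- replicate 4 and Eln+/+ replicate 1 lay far above the other libraries of their genotype, Eln-/- replicate 5 came next, and the genotypes overlapped. Its log2 fold change of Eln-/- over Eln+/+ was 0.74 (SE 1.34, n = 5 each) in the edgeR fit, and -0.29 without the 3 low-detection libraries.

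The P-stalk of the large subunit, which binds the elongation factors, is formed by the long protein Rplp0 and the short proteins Rplp1 and Rplp2. Rplp0 had 1202, 3739.9, 4824, 1459 and 5490.4 CPM in Eln-/- replicates 1 to 5, against 2486, 2314, 3447, 3429 and 5068 CPM in Eln+/+ replicates 1 to 5. Rplp1 had 211, 635, 925, 2830.2 and 1661 CPM in Eln-/- replicates 1 to 5, against 2539.6, 376, 682, 620.2 and 901 CPM in Eln+/+ replicates 1 to 5. Rplp2 had 78.8, 250.1, 317, 1063 and 536 CPM in Eln-/- replicates 1 to 5, against 677, 144, 175, 197 and 320.0 CPM in Eln+/+ replicates 1 to 5. The short partners were highest in Eln-/- replicate 4, where Rplp0 was the second lowest of its genotype, and the genotypes overlapped for all 3 genes. The ratio of Rplp1 to Rplp0 CPM was 1.94 and 0.303 in Eln-/- replicates 4 and 5 and 1.02 in Eln+/+ replicate 1. It was 0.162 to 0.198 in each of the rest. Rplp1 has 342 coding bases and Rplp0 has 951. A fixed effect of gene length stays in each ratio as the same factor and cancels only when libraries are compared. A length dependence that differs between libraries does not cancel. The ratio is therefore no length-free measure of the balance within the P-stalk. Rplp2 had one of the 3 highest log2 fold changes among members, 0.81 (SE 0.97, n = 5 each), and Rplp1 had 0.46 (SE 1.02, n = 5 each).

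Among the other large subunit proteins, Rpl41, a peptide rich in basic residues with the shortest coding sequence, had 377, 1010.0, 1882, 10057 and 4231 CPM in Eln-/- replicates 1 to 5, against 7690.1, 615, 1261, 1118 and 2129 CPM in Eln+/+ replicates 1 to 5. Rpl38, which in mice is needed for the translation of Hox mRNAs, had 20, 56.02, 81.4, 539 and 168 CPM in Eln-/- replicates 1 to 5, against 362, 27.5, 63.99, 47.5 and 77.02 CPM in Eln+/+ replicates 1 to 5. Rpl32 had 565, 1825, 2950.0, 14335 and 6487 CPM in Eln-/- replicates 1 to 5, against 11235, 1061, 2129.7, 1749 and 3392 CPM in Eln+/+ replicates 1 to 5. For each of these the order of the top 3 libraries was Eln-/- replicate 4, Eln+/+ replicate 1 and Eln-/- replicate 5, and the genotypes overlapped. Rpl27, another large subunit protein, followed the same order, with 42.8 to 656 CPM in Eln-/- libraries and 59.1 to 434 CPM in Eln+/+ libraries. Its log2 fold change was 0.82 (SE 1.05, n = 5 each), beside 0.65 (SE 1.25, n = 5 each) for Rpl41, 0.80 (SE 1.21, n = 5 each) for Rpl38 and 0.62 (SE 1.23, n = 5 each) for Rpl32.

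Among the long members of the large subunit, Rpl4, which lines the exit tunnel of the nascent chain, had 1141, 1204, 1086, 9.59 and 515 CPM in Eln-/- replicates 1 to 5, against 44.9, 1301, 1339, 1217 and 1164 CPM in Eln+/+ replicates 1 to 5. It was described after its values were seen, as the member with the widest span of ranks, from place 3 to place 79 by CPM per kb. Its lowest values were those of Eln-/- replicate 4 and Eln+/+ replicate 1, and the other 4 Eln+/+ libraries lay within 1164 to 1339 CPM. Rpl6 had 211, 344, 373, 108 and 297 CPM in Eln-/- replicates 1 to 5, against 220.0, 325, 470.4, 355 and 445 CPM in Eln+/+ replicates 1 to 5, lowest in Eln-/- replicate 4, and the genotypes overlapped. Rpl5 and Rpl11, which together with the 5S ribosomal RNA bind and block Mdm2 when ribosome assembly is disturbed, had 10.2 to 38.003 CPM in Eln-/- libraries and 19.2 to 39.5 CPM in Eln+/+ libraries for Rpl5 and 21.6 to 84.2 CPM in Eln-/- libraries and 29.99 to 60.6 CPM in Eln+/+ libraries for Rpl11. Only 2.08% of the joint counts of Rpl5 and its copies and 7.85% of those of Rpl11 lay on the member, and their log2 fold changes were -0.03 (SE 0.48, n = 5 each) and 0.24 (SE 0.59, n = 5 each).

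In the small subunit, Rps14, which sits on the platform near the exit of the mRNA, had 534, 1893, 3111, 15289 and 7318 CPM in Eln-/- replicates 1 to 5, against 10412, 1019.9, 2117, 1765 and 3315 CPM in Eln+/+ replicates 1 to 5. Rps18, a protein of the head, had 211, 673, 1055, 3569 and 2365 CPM in Eln-/- replicates 1 to 5, against 2347, 352, 718, 609 and 1150.3 CPM in Eln+/+ replicates 1 to 5. Rps19, whose human gene is mutated in Diamond-Blackfan anaemia, had 391, 1145, 1627, 4456 and 2847 CPM in Eln-/- replicates 1 to 5, against 4564, 710.1, 1251, 1065 and 1752 CPM in Eln+/+ replicates 1 to 5. All 3 were highest in the low-detection libraries, and the genotypes overlapped. Rps18 had the highest log2 fold change of all members, 0.83 (SE 1.05, n = 5 each), and Rps14 and Rps19 had 0.81 (SE 1.23, n = 5 each) and 0.31 (SE 1.02, n = 5 each).

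Rps4x, an X-linked protein of the small subunit, had 217, 454, 456, 101 and 349 CPM in Eln-/- replicates 1 to 5, against 379.5, 379, 547, 448 and 533 CPM in Eln+/+ replicates 1 to 5. Its lowest value was in Eln-/- replicate 4 and its 2 highest in Eln+/+ replicates 3 and 5, with overlap between the genotypes. Rps6, the substrate of the S6 kinases downstream of mTOR, had 75.2, 166, 216, 192 and 301 CPM in Eln-/- replicates 1 to 5, against 269.8, 122, 202, 159.8 and 264 CPM in Eln+/+ replicates 1 to 5, which kept within a 4-fold range. Rpsa, first described as a laminin receptor, had 126, 336, 367, 179 and 503.5 CPM in Eln-/- replicates 1 to 5, against 202, 212, 221, 246 and 392 CPM in Eln+/+ replicates 1 to 5, highest in Eln-/- replicate 5. Rps27a, which is made as a fusion with ubiquitin, ranged over 56.4 to 1315 CPM in Eln-/- libraries and 96.5 to 1054 CPM in Eln+/+ libraries, with its highest values in Eln-/- replicate 4 and Eln+/+ replicate 1. The log2 fold changes were -0.58 (SE 0.43, n = 5 each) for Rps4x, 0.01 (SE 0.61, n = 5 each) for Rps6, 0.38 (SE 0.51, n = 5 each) for Rpsa and 0.59 (SE 1.17, n = 5 each) for Rps27a.

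**Figure D4:**
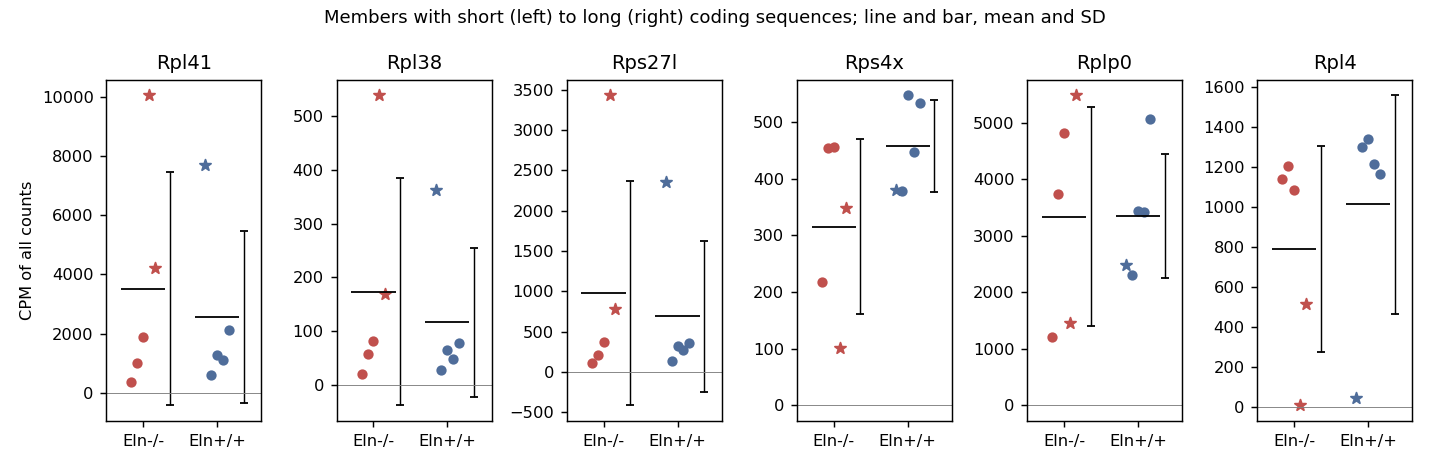
CPM of all counts for 6 members, ordered from short to long coding sequences; each point is a library, Eln-/- left and Eln+/+ right, stars are the 3 low-detection libraries, and lines and bars are the mean and SD of 5 libraries. The highest library of each genotype is starred for Rpl41, Rpl38 and Rps27l, and the lowest is starred for Rpl4 (9.59 CPM in Eln-/- replicate 4 and 44.9 CPM in Eln+/+ replicate 1); the y axes differ between panels.

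The comparison of Eln-/- with Eln+/+ asks whether loss of elastin changes the levels of ribosomal protein mRNAs. Of the 80 members that passed the filter 0 were called in either direction by edgeR's quasi-likelihood test at an adjusted p of 0.05, beside 0% of all 15718 genes tested, higher or lower. Eln itself was among the genes tested and was not called, although its genotypes did not overlap. An absence of calls in this fit therefore does not show that the members were unchanged. Among members 0 had an unadjusted p under 0.05, beside 0.369% of all genes higher and 0.146% lower in Eln-/- cells. For 0 members did the genotypes not overlap, beside 0.14% of all genes higher and 0.165% lower in Eln-/- cells. DESeq2 called 0 members (0.0382% of all genes), limma-voom 0 (0.0127%), and limma-voom with sample quality weights 0 (0.0445%). The smallest unadjusted p was 0.209, for Rps4x, with an adjusted p of 0.9997 in the edgeR fit.

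Log2 fold changes of the members ran from -0.58 for Rps4x to 0.83 for Rps18, with a median of 0.31 and 62 of 80 above 0, beside a median of 0.02 over all genes tested. Their SE ran from 0.38 to 1.34 with a median of 0.93, and for 77 of the 80 the SE was larger than the change itself. The biological coefficient of variation behind these errors was 1.16. The sign of the median rested on single libraries. Without Eln-/- replicate 4 it was -0.54 with 10 of 80 above 0, without Eln+/+ replicate 1 it was 1.41 with 73 of 81 above 0, and without each of the other 8 libraries it was between 0.06 and 0.60. Without Eln+/+ replicate 1, 8 members had an unadjusted p under 0.05, all higher in Eln-/- cells, beside 1.82% of all genes higher and 0.314% lower, and the smallest adjusted p of a member was 0.9997. Without the 3 low-detection libraries the median was -0.19 with 5 of 81 above 0, and 0 members of 81 were called, beside 0% of 17509 genes.

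Fold changes also followed coding length. The median log2 fold change was 0.53 for the 26 tested members under 400 bases (25 above 0), 0.31 for the 30 members of 400 to under 600 bases (24 above 0) and 0.05 for the 21 members of 600 bases or more (12 above 0). Spearman's rho between coding length and log2 fold change was -0.60 over 77 members that share the same 10 libraries. Without the 3 low-detection libraries the 3 medians were -0.18, -0.17 and -0.19, so that no order by length was seen. By subunit the median was 0.40 for the 32 small subunit members and 0.17 for the 48 large subunit members tested, and -0.17 and -0.19 without those libraries.

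**Figure D5:**
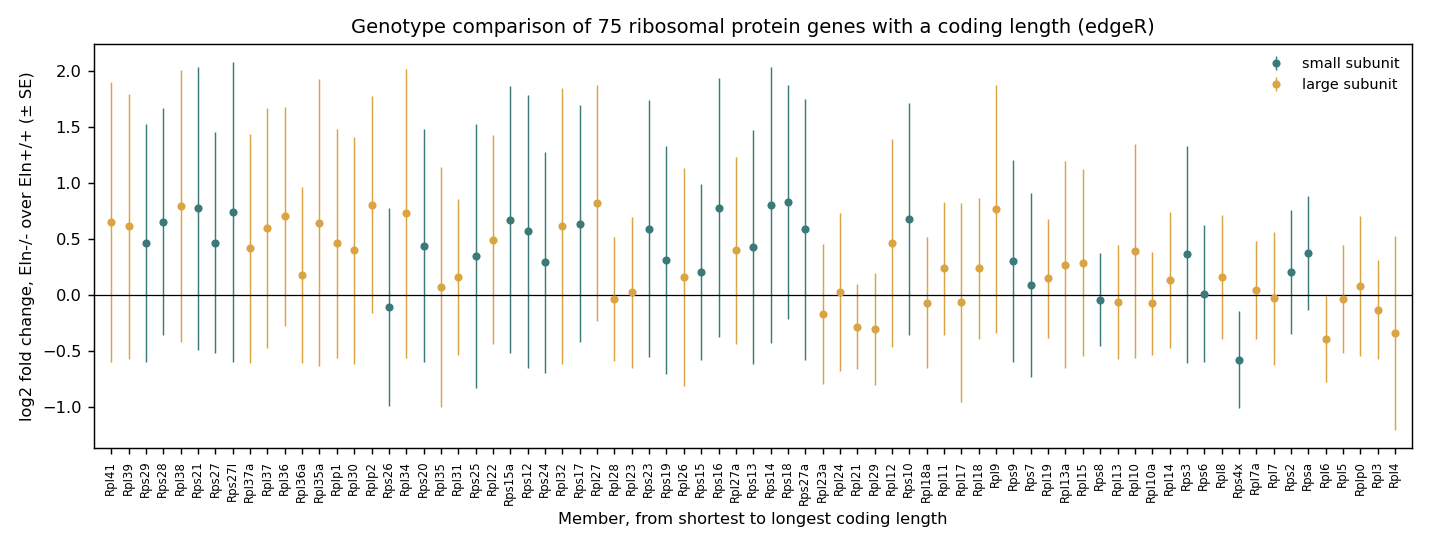
Log2 fold change of Eln-/- over Eln+/+ with its SE from edgeR (n = 5 each) for 75 tested members with a coding length, ordered from Rpl41 (75 bases) on the left to Rpl4 (1257 bases) on the right; green, small subunit, and yellow, large subunit. Most values lie above 0 on the left and around 0 on the right, and the SE bar crosses 0 for 73 of the 75.

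Members ending in l are paralogues or copies of a ribosomal protein gene. Rpl39l, a relative of Rpl39 that is enriched in testis, was near the limit of detection with 0.355, 0.201, 0.124, 2.43 and 0.128 CPM in Eln-/- replicates 1 to 5, against 0.148, 0, 2.05, 0 and 0.903 CPM in Eln+/+ replicates 1 to 5, and failed the filter. Rpl32l and Rpl6l are annotated as processed pseudogenes and Rps4l as a transcribed one, and these 3 have no annotated coding sequence and were not searched for copies. Rpl32l is itself 96% identical to Rpl32 and Rpl6l 98.7% identical to Rpl6 by the search used, so that their counts are uncertain too. Rpl32l had 9.31 to 229 CPM in Eln-/- libraries and 19.5 to 180.2 CPM in Eln+/+ libraries, in the same order of the top 3 libraries as Rpl32. Rpl6l had 49.1 to 243 CPM in Eln-/- libraries and 132 to 309 CPM in Eln+/+ libraries, and Rps4l had 36.8 to 147 CPM in Eln-/- libraries and 45.7 to 187 CPM in Eln+/+ libraries. Their log2 fold changes were 0.63 (SE 1.13, n = 5 each), -0.44 (SE 0.39, n = 5 each) and -0.17 (SE 0.42, n = 5 each).

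A list of 7 genes of cytosolic ribosomal proteins or their relatives that the symbol rule leaves out was compared as well, and edgeR called 0 of the 7 tested. Other loci, such as Rps27rt, are outside both. Rpl22l1, a paralogue of Rpl22, had 88.1, 202, 329, 1957 and 736 CPM in Eln-/- replicates 1 to 5, against 1654, 127, 309, 227 and 368 CPM in Eln+/+ replicates 1 to 5. Rack1, a scaffold on the small subunit, had 311, 823, 1156, 1115 and 1829.9 CPM in Eln-/- replicates 1 to 5, against 1062, 497, 680.5, 643 and 1179 CPM in Eln+/+ replicates 1 to 5. Rpl22l1 showed the same 3 libraries at the top as the short members, whereas Rack1 was highest in Eln-/- replicate 5. Their log2 fold changes were 0.50 (SE 1.20, n = 5 each) and 0.51 (SE 0.70, n = 5 each), beside -0.16 for Rps3a1, -0.32 for Rpl7l1, 0.52 for Rpl36al and 0.39 for Fau, whose product is made as a fusion with a ubiquitin-like protein. The median of the 7 was 0.39, and 0 of the 7 were above 0 without the 3 low-detection libraries.

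Genes that make or regulate ribosomes were compared in the same fit, and edgeR called 0 in each list. The 83 mitochondrial ribosomal protein genes, which serve a separate ribosome, had a median log2 fold change of 0.13 with 62 above 0, and -0.15 with 16 above 0 without the 3 low-detection libraries. They held 0.388% to 1.35% of counts in Eln-/- libraries and 0.525% to 1.32% in Eln+/+ libraries, and their highest shares were in the same 3 libraries (1.1% to 1.35%). Mrpl43 and Mrpl39 had the smallest p of this list, with log2 fold changes of 0.82 (SE 0.58, n = 5 each) and -0.52 (SE 0.45, n = 5 each). The 40 ribosome biogenesis genes had a median of -0.05 with 19 above 0, and 0.10 with 25 above 0 without those 3 libraries, and their share of counts kept to 0.267% to 0.322% in Eln-/- libraries and 0.245% to 0.315% in Eln+/+ libraries. Fbl, the methyltransferase of the nucleolus, had 0.51 (SE 0.47, n = 5 each), and Nap1l1, a histone chaperone, had -0.54 (SE 0.51, n = 5 each).

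Among the 12 tested genes of RNA polymerase I and its factors, which transcribe ribosomal RNA, the median log2 fold change was 0.21 with 7 above 0, and -0.03 with 5 above 0 without the 3 low-detection libraries. Polr1c and Polr1e had 0.67 (SE 0.58, n = 5 each) and -1.07 (SE 1.04, n = 5 each). The 37 translation factors had a median of -0.06 with 15 above 0, and -0.07 with 12 above 0 without those libraries. Their share of counts was lowest in Eln-/- replicate 4 (0.609%) and Eln+/+ replicate 1 (0.771%) and 1.3% to 2.09% elsewhere. Eif5b, which joins the subunits, had 1.23 (SE 1.04, n = 5 each) and Eif3e, a subunit of the complex that brings mRNA to the small subunit, had -0.37 (SE 0.45, n = 5 each). The 13 tested regulators of ribosomal protein genes and their translation, among them mTOR pathway genes and Myc, had a median of 0.23 with 11 above 0, and 0.47 with 11 of the 14 then tested above 0 without the 3 low-detection libraries. Mtor, the kinase of that pathway, was measured at 6.79, 5.58, 5.84, 22.1 and 15.3 TMM-scaled CPM in Eln-/- replicates 1 to 5, against 7.94, 4.85, 0.0609, 1.84 and 1.23 TMM-scaled CPM in Eln+/+ replicates 1 to 5, with overlap between the genotypes and a log2 fold change of 1.81 (SE 1.05, n = 5 each). Max, the partner of Myc, had 0.66 (SE 0.43, n = 5 each).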

How the data were processed

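The authors deposited estimated counts per gene for 10 libraries, not scaled for depth, and all 81 members had some values that are not whole. Per the submitters' processing notes, STAR, DESeq2 and the build mm10 were used; the counting program, its annotation and its treatment of strand and of reads with several matches were not given in the sources used here, so counts of overlapping genes are uncertain as well. Values were rounded, filtered by filterByExpr and scaled with TMM factors, and the genotype was tested with edgeR's quasi-likelihood test over all 15718 genes kept, with Benjamini-Hochberg adjustment. CPM in the report are relative to all counts of a library, without TMM factors unless stated; fold changes use TMM factors. SE is the fold change over the square root of F. Coding and exon lengths came from GENCODE mouse release 21, whose coordinates were the same as those of the table for 27046 of 28165 genes and all 81 members. Copies were found with BLAST+ 2.17.0. The fits used edgeR 4.0.16, DESeq2 1.42.0 and limma 3.58.1 under R 4.3.3. The fit was also run on counts simulated with known fold changes. They were drawn independently for each gene and held no dependence on coding length, so that run does not assess the length pattern.

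Members and gene lists were chosen with earlier results of these data known. Named members were the 8 highest per kilobase, the 6 of smallest p, the 3 highest and 3 lowest fold changes, 10 with a role of their own and those ending in l, plus the 7 genes outside the rule and the 2 of smallest p in each related list. Results of some of these genes are not reported here. The sum over copies was chosen after the data were seen. Promoter and start windows came from RefSeq. Libraries held 26951733 to 63866416 counts.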

Additional observations from a re-analysis of the deposited data

Results flagged for a closer look

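Within each genotype of 5 libraries, the gap between an extreme library and its nearest neighbour was set against the range of all 5. For normally distributed values, chance passes this measure in about 1 in 20 groups, but CPM were used without logs. A second extreme library narrows the gap, and Eln-/- replicates 4 and 5 are both low-detection, so the genotypes are not compared. In Eln-/- libraries 6 of 81 members had a library far from the others (5 high in replicate 4 and 1 low in replicate 1). In Eln+/+ libraries 38 of 81 did (36 high and 1 low in replicate 1, and 1 high in replicate 5). Of all 15718 genes tested, 12.9% in Eln-/- libraries and 15.9% in Eln+/+ libraries did. On this scale the members of Eln-/- libraries were below the share of all genes. With TMM-scaled CPM the members were 30 of 80 in Eln-/- libraries and 60 of 80 in Eln+/+ libraries, beside 18.3% and 21.9% of all genes. The summed share of the members did not.

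In Eln-/- replicate 4 the named members so found were Rps27l at 3432 CPM, Rpl38 at 539 CPM and Rpl39l at 2.43 CPM. In Eln+/+ replicate 1 they were Rpl32 at 11235 CPM, Rps14 at 10412 CPM, Rpl41 at 7690.1 CPM, Rps19 at 4564 CPM, Rplp1 at 2540 CPM, Rps27l at 2353 CPM, Rps27a at 1054 CPM, Rpl27 at 434 CPM, Rpl38 at 362 CPM and Rpl32l at 180.2 CPM. In Eln+/+ replicate 5 it was Rpsa at 392 CPM. Eln-/- replicate 4 and Eln+/+ replicate 1 are low-detection libraries. The cause was not tested.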

How the results depend on the processing

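The spread between libraries exceeded counting error. The 3 low-detection libraries also had the fewest counts, so depth cannot be told apart from their other traits. Under 20 alternatives to the fit (scaling, filter, tool, libraries left out, copies summed) 0 members and 0 genes of the related lists were called, with a smallest adjusted p of a member of 0.9997 over all of them. The median log2 fold change of the members was 0.16 with library sizes only, 0.03 with quality weights, -0.19 without the 3 low-detection libraries, and -0.54 to 1.41 with single libraries left out. The replicate numbers did not pair the libraries throughout. Deviations of same-numbered libraries correlated at -0.56, 0.51, 0.12, -0.38 and 0.09 for numbers 1 to 5. Among Eln-/- libraries only replicate 2 correlated best with the Eln+/+ library of its own number. With the replicate number as a block the median was 0.47 and 0 members were called. The mean share was 12.1% in Eln-/- cells and 10.5% in Eln+/+ cells with near-identical copies added. With ribosomal pseudogene symbols added it was 9.38% in Eln-/- cells and 7.95% in Eln+/+ cells, within 1 SD of the main means. It also stayed within 1 SD under the other denominators and with the ribosomal proteins left out by the rule added. Leaving out 1 library moved the mean to 4.23% to 6.81% in Eln-/- cells and 3.51% to 5.55% in Eln+/+ cells. With copies summed, 5 of the first 8 members by CPM per kb were the same. Cases of a library far from the others of its genotype numbered 90 with TMM-scaled CPM and 44 with CPM of all counts. Of 21 named members, signs changed as follows; the cause was not tested. They were Rpl32 at -0.27, Rpl41 at -0.27, Rplp1 at -0.16, Rplp0 at -0.17, Rps14 at -0.19, Rps27l at -0.29, Rps18 at -0.17, Rps27a at -0.17, Rps6 at -0.34, Rpl11 at -0.13, Rpl38 at -0.082, Rps19 at -0.22 and Rpl32l at -0.24 without the 3 libraries; Rplp0 at -0.0027 and Rps6 at -0.10 with library sizes only; Rplp0 at -0.084 and Rps6 at -0.069 with limma-voom; Rpl41 at -0.014, Rps27l at -0.12 and Rps6 at -0.066 with quality weights; Rps6 at -0.016 with DESeq2 and Rps6 at -0.016 with its size factors; Rps6 at -0.015 without the filter; and Rplp0 at -0.018 with the replicate block. With single libraries left out they spanned -0.84 to 2.26 for Rpl32, -0.90 to 2.42 for Rpl41, -0.65 to 1.79 for Rplp1, -0.27 to 0.32 for Rplp0, -0.62 to 2.39 for Rps14, -1.46 to 2.93 for Rps27l, -0.39 to 1.96 for Rplp2, -0.26 to 2.00 for Rps18, -0.58 to 2.29 for Rpl27, -0.94 to 2.34 for Rps27a, -0.28 to 0.53 for Rps6, -0.31 to 0.11 for Rpl5, -0.023 to 0.71 for Rpl11, -1.01 to 2.68 for Rpl38, -0.70 to 1.61 for Rps19 and -0.76 to 2.24 for Rpl32l. Summing copies and scaling without ribosomal protein genes changed the sign of 0 named members.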
